A study of Oryctolagus cuniculus with 12 samples.

Results

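The genes described here are those of Wnt signalling in rabbit cornea: the ligands, their receptors and other proteins that carry, strengthen or hold back the signal. They were chosen by gene name from the deposited table (WNT, FZD, SFRP, DKK, RSPO, LGR4 to LGR6, AXIN and TCF/LEF families, with WIF1, LRP5, LRP6, FRZB, CTNNB1, RNF43, ZNRF3, PORCN, WLS and NOTUM), which gave 57 genes of 29076. No row carried the names WNT7B, FZD10 or NOTUM, so these were not analysed here. RNA from cornea was sequenced in 12 libraries, 3 in each of the groups labelled blue light (blue_light below), GL, RL and Ctrl (control below). Per the labels all rabbits, controls included, were 6 months old, on a normal diet and under the same 6 weeks of light exposure. The labels spell out neither GL nor RL and give no strain, wavelength or light intensity. They tie no library to an animal, so p-values reflect how far libraries of a group vary, and that variation could be technical.

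Wnt proteins are lipid-modified by PORCN and carried out of the cell by WLS, then bind a Frizzled receptor together with LRP5 or LRP6. Binding stops the AXIN scaffold from marking beta-catenin (CTNNB1) for destruction, and beta-catenin then acts with TCF and LEF proteins on its target genes. SFRP proteins, FRZB and WIF1 bind the ligands outside the cell and DKK proteins bind the LRP receptors, while RNF43 and ZNRF3 remove Frizzleds from the cell surface unless R-spondins and LGR receptors restrain them. In the eye surface, Wnt signalling is known for its part in the limbal stem cells that renew the corneal epithelium.

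Total counts were 40.9 to 58.8 M in blue_light, 61.6 to 64.7 M in GL, 45.9 to 62.4 M in RL and 44.4 to 56.9 M in control. All libraries held the corneal keratin KRT12 at 7739 to 14017 FPKM (fragments scaled to transcript length and library depth) and the stromal proteoglycan KERA at 1799 to 3406 FPKM. The limbus and conjunctiva list rested on 4 tested genes of 10. Lens genes were present in every library, with CRYAA at 198 to 5258 FPKM. The retinal marker list had a mean log2 CPM (counts scaled to library depth) of 2.17 in blue_light 1, 3.89 in GL 3 and 1.65 in control 2, and of at most 0.0818 in the 9 others. Between 2389 and 2563 genes had counts of 1 to 20 in all 3 blue_light libraries, RL 1 and control 1, and 767 to 1461 in the 7 other libraries. All GL libraries lie in the set of 7 and all blue_light libraries in the set of 5, so between those groups library set and light cannot be told apart other than through the RL and control libraries, which lie in both sets. In bulk tissue, fewer cells of a type and less RNA per cell cannot be told apart either.

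Of the 57 genes, 16 averaged at least 10 FPKM over the 12 libraries, 37 at least 1 FPKM and 20 less. The order of mean levels began with CTNNB1 at 177 FPKM, WLS at 86.7, DKK2 at 83.2, WNT4 at 57.9, DKK3 at 43.1, WNT5A at 38.3 and WNT3 at 36.2. CTNNB1 lay above WLS in 12 of 12 libraries and WNT3 above the next gene, FZD6, in 11. Neighbours in between were less distinct: WLS lay above DKK2 in 8 libraries, DKK3 above WNT5A in 7 and WNT5A above WNT3 in 5. The steadiest member was CTNNB1, with a coefficient of variation of 7.95% over the 12 libraries, against 33.2% for SFRP1 and 69.5% for WNT16. RSPO4 had no count in any library. RSPO2, RSPO3 and WNT8B had counts in 1 library each, and DKK1, WNT1 and WNT9B in 3 each. These 7 failed the filter on low counts, which left 50 tested. A count of 0 allows up to 3 fragments, or 0.177 to 0.281 CPM depending on the library.

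**Figure D1:**
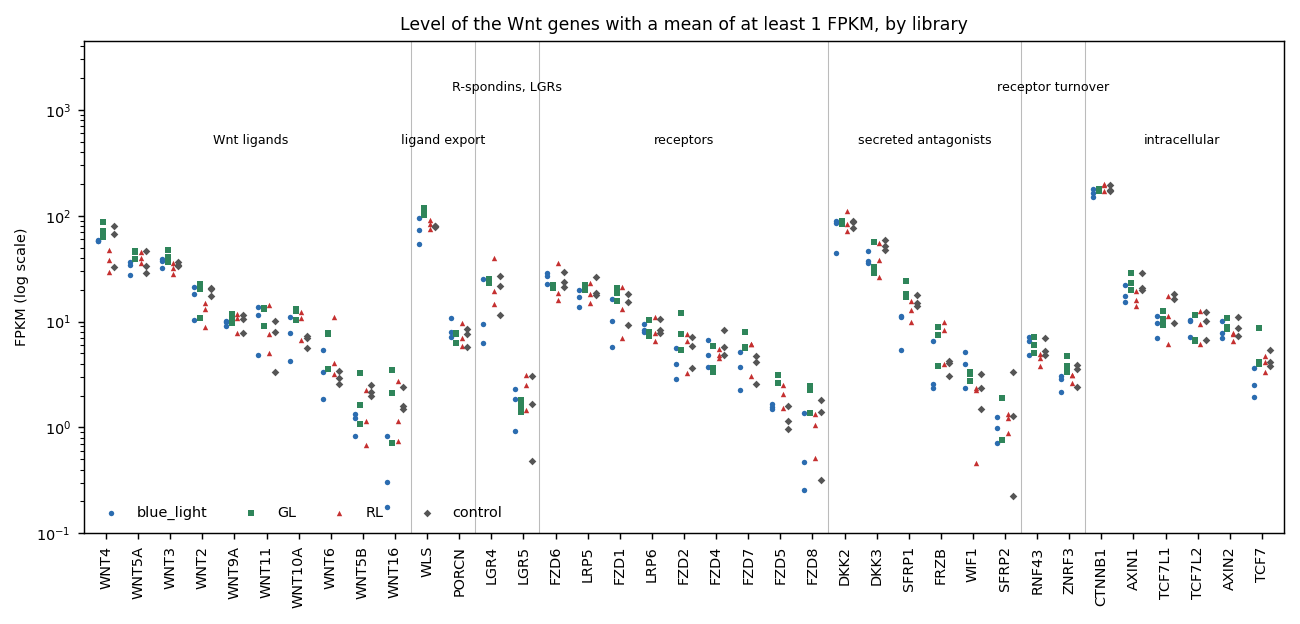
FPKM on a log axis of the 37 Wnt genes with a mean of at least 1 FPKM, grouped by role, with 1 point per library (blue_light, GL, RL and control side by side). CTNNB1, WLS, DKK2 and WNT4 stand highest, and WNT16, FZD8 and SFRP2 vary most; SFRP2 had no count in GL 1, which a log axis cannot show.

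No Wnt gene passed the threshold in any of 8 comparisons (edgeR quasi-likelihood test over 18171 genes, Benjamini-Hochberg adjusted p under 0.05). The smallest adjusted p of any member was 0.231, for SFRP1 in blue_light against GL. SFRP1, a secreted Wnt antagonist, averaged 9.29 ± 3.34 FPKM in blue_light, against 19.8 ± 3.66 in GL and 15.7 ± 2.01 in control (SD, 3 libraries each). FZD5, a Frizzled receptor, averaged 2.77 ± 0.287 FPKM in GL, against 1.23 ± 0.318 in control. In blue_light against control, 0 of 50 members were called, against a background of 0.0165% of all genes. The shares were 0 of 50 and 0.0550% in GL against control, and 0 of 50 and 0.0110% in RL against control. At an unadjusted p under 0.05 there were 3, 4 and 2 members in these comparisons, against 3.26%, 8.10% and 4.74% of all genes. That is 6%, 8% and 4% of the 50 members, counts too small to set apart from the background. No member was called by edgeR in the comparisons between light groups either, where the background was 0.0495% for blue_light against GL, 0.0110% for blue_light against RL and 0.0715% for GL against RL. The mean of the light groups against control (background 0.0110%) and any difference among groups (0.0605%) gave none, with 2 and 5 members at an unadjusted p under 0.05 against 4.20% and 7.79% of all genes. Between light groups 9 members had an unadjusted p under 0.05 in blue_light against GL (background 14.9%), 3 in blue_light against RL (5.14%) and 3 in GL against RL (8.60%).

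Members whose 2 groups of libraries did not overlap were counted next. In blue_light against control 8 of 50 did not overlap (16%), against 9.04% of all genes. Of these, SFRP5, FZD9 and WNT2B lay above control (background 4.74%) and WNT16, SFRP1, TCF7, WNT5B and DKK3 below (4.30%). FZD9 had counts of 18, 11 and 31 in blue_light and 0, 10 and 0 in control, so its separation lay near the floor. In GL against control 8 of 50 did not overlap (16%, background 18.5%), with FZD5, WNT10A, WLS, WNT6, FZD7 and WNT3 above (7.67%) and RSPO1 and WNT2B below (10.8%). In RL against control 4 of 50 did not (8%, background 8.81%), with WNT2B above (2.65%) and WNT2, AXIN1 and RSPO1 below (6.16%). The median log2 fold change of the 50 members was −0.13 in blue_light, 0.10 in GL and −0.04 in RL against control, and that of all tested genes 0.01, −0.02 and 0.00449. The blue_light median of the members was −0.0014 with library set as a covariate and −0.035 without the libraries with retinal transcripts. It was −0.20 without blue_light 2. In blue_light 34 of 50 fold changes were below 0, in GL 19 and in RL 27. The share of all genes below 0 was not counted, so these counts have no background beside them. These 3 comparisons share the control libraries.

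**Figure D2:**
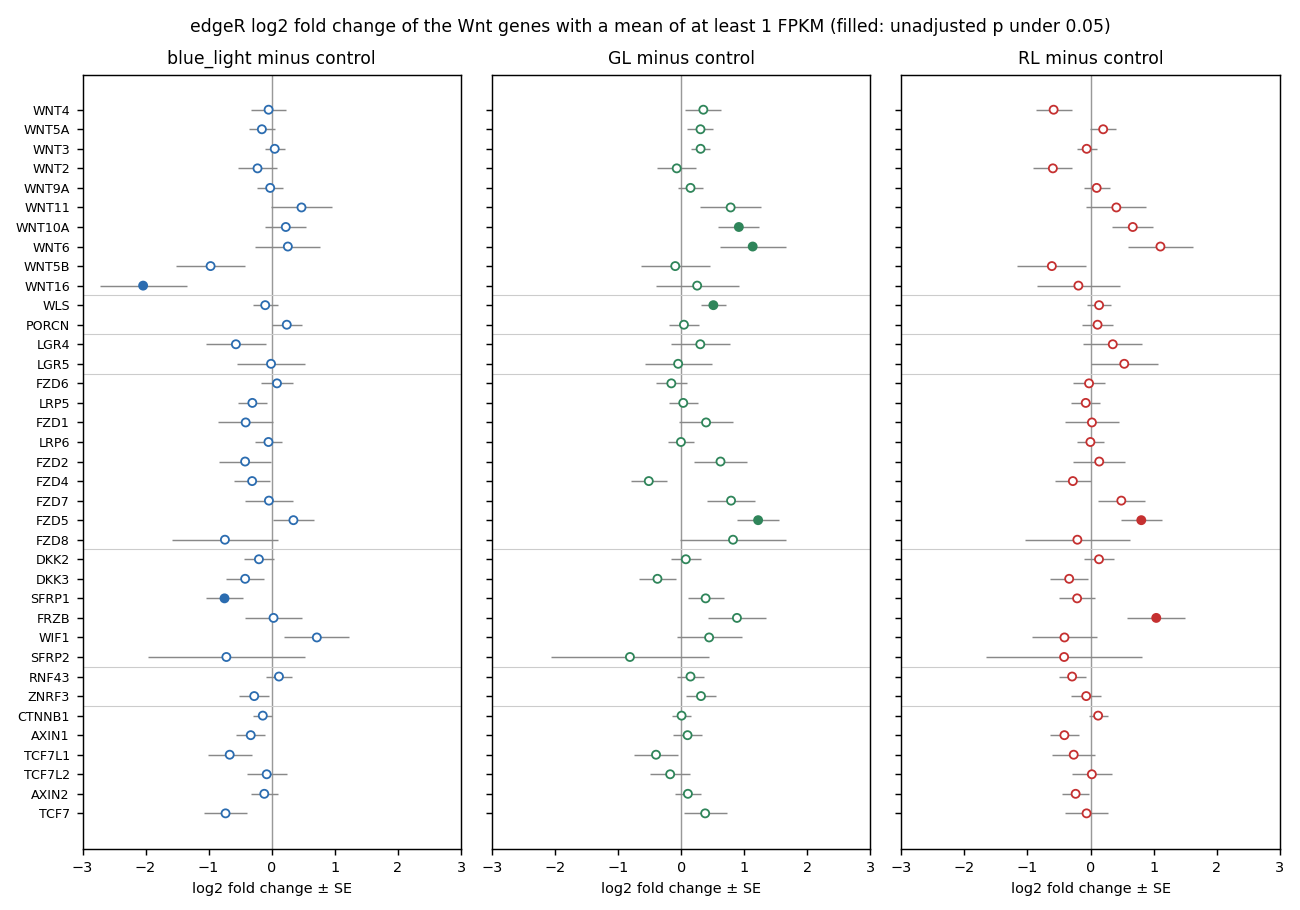
edgeR log2 fold change with its standard error of 37 Wnt genes in blue_light, GL and RL, each minus control; filled points have an unadjusted p under 0.05 and no point passed the adjusted threshold. WNT16 and SFRP1 are the filled points in blue_light, WNT10A, WNT6, WLS and FZD5 in GL, and FZD5 and FRZB in RL.

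Among secreted antagonists, 10 genes were listed and 9 tested. Sequence NW_003159332.1, a rabbit RefSeq scaffold, carries SFRP1 at 1765879 to 1798600 on the plus strand, in the deposited coordinates, whose build no source used here names. The SFRP1 values were 5.44, 11.1 and 11.3 FPKM in blue_light, 17.2, 24.0 and 18.2 in GL and 9.97, 15.8 and 12.8 in RL, with 14.1, 15.0 and 17.9 in control. Every blue_light library lay below every control and below every GL library, and every GL library above every RL library. SFRP1 gave, for blue_light minus control, a log2 fold change of −0.75 ± 0.29 SE, with an unadjusted p of 0.0216 and an edgeR adjusted p of 1. For blue_light minus GL, SFRP1 had a log2 fold change of −1.14 ± 0.29 SE (unadjusted p = 0.00174, edgeR adjusted p = 0.231). The fold in blue_light against control was −0.47 without blue_light 1, −0.49 without the 3 libraries with retinal transcripts and −0.47 with library set as a covariate, and that against GL was −0.72 with the covariate. In GL against control its log2 fold change was 0.39 ± 0.28 SE (unadjusted p = 0.196, edgeR adjusted p = 0.718). This fold was −0.04 with library size as a covariate, so its direction did not hold. SFRP1 gave, for RL minus control, a log2 fold change of −0.21 ± 0.28 SE, with an unadjusted p of 0.468 and an edgeR adjusted p of 1. It was −0.04 without RL 1, −0.11 without control 3, −0.40 without RL 2 and −0.47 with library size as a covariate. For GL minus RL, SFRP1 had a log2 fold change of 0.60 ± 0.28 SE (unadjusted p = 0.0555, edgeR adjusted p = 0.581). In blue_light against RL its log2 fold change was −0.54 ± 0.29 SE (unadjusted p = 0.0830, edgeR adjusted p = 0.930). This one was −0.25 without blue_light 1 or without the libraries with retinal transcripts, −0.34 without RL 2, −0.29 with library size and −0.24 with library set as a covariate. With DESeq2 in place of edgeR, SFRP1 had an adjusted p of 0.0191 in blue_light against GL, where that tool called 383 genes.

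The other abundant antagonists were DKK2 and DKK3. DKK2 binds LRP6, and mice without it are known to form keratinised skin-like tissue in place of corneal epithelium. For DKK2 the libraries gave 44.6, 85.4 and 89.9 FPKM in blue_light, 85.5, 89.4 and 83.1 in GL, 112, 82.9 and 72.2 in RL and 89.6, 76.9 and 87.4 in control. Blue_light 1 was the low value and RL 1 the high one, and the other libraries lay within 72.2 to 89.9 FPKM. DKK3 is a divergent member of the family. DKK3 stood at 37.7, 46.0 and 35.5 FPKM in blue_light, 28.5, 57.1 and 33.0 in GL and 26.4, 55.4 and 37.9 in RL, against 47.8, 59.6 and 51.9 FPKM in control. Its blue_light libraries lay below every control, while GL and RL overlapped control. SFRP5, a relative of SFRP1, stayed under 1 FPKM in every library. The SFRP5 values were 0.886, 0.706 and 0.580 FPKM in blue_light, 0.387, 0.505 and 0.309 in GL and 0.328, 0.304 and 0.607 in RL, with 0.516, 0.168 and 0.191 in control. Its blue_light libraries lay above every control and above every GL library. SFRP5 gave, for blue_light minus control, a log2 fold change of 1.31 ± 0.56 SE, with an unadjusted p of 0.0372 and an edgeR adjusted p of 1. Without control 1 it was 1.999, and on the log2(FPKM + 1) scale 0.42. WIF1, which traps Wnt ligands through its own WIF domain, was variable. For WIF1 the libraries gave 2.37, 3.98 and 5.18 FPKM in blue_light, 3.18, 2.75 and 3.34 in GL, 2.24, 2.35 and 0.459 in RL and 3.20, 1.49 and 2.38 in control. Blue_light lay above RL without overlap, and RL 3 was the lowest value of all. For blue_light minus RL, WIF1 had a log2 fold change of 1.13 ± 0.52 SE (unadjusted p = 0.0496, edgeR adjusted p = 0.930). Without RL 3 this fold was 0.68, and it was 0.72 with library set as a covariate. FRZB, also an SFRP-type antagonist, averaged 3.85 ± 2.40 FPKM in blue_light, 6.75 ± 2.63 in GL and 7.39 ± 3.07 in RL, against 3.78 ± 0.617 in control (SD, 3 libraries each). SFRP2 averaged 1.16 FPKM over the 12 libraries, SFRP4 and DKK4 0.233 and 0.263.

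Of the Wnt ligands, 18 were in the table and 10 of them averaged at least 1 FPKM. Their summed level was 172 to 190.1 FPKM in blue_light, 216 to 232 in GL and 149 to 178 in RL, against 149 to 202 in control. The GL sums lay above all others, as a description with no test. WNT4 led the ligands. WNT4 stood at 59.3, 57.9 and 58.2 FPKM in blue_light, 88.1, 63.5 and 71.9 in GL and 29.3, 38.1 and 47.6 in RL, against 33.1, 67.5 and 80.1 FPKM in control. The values in blue_light lay within 1.37 FPKM of each other, whereas control 1 stood far below the other controls and close to RL 1. In GL against RL its log2 fold change was 0.94 ± 0.29 SE (unadjusted p = 0.00615, edgeR adjusted p = 0.466). WNT4 gave, for blue_light minus RL, a log2 fold change of 0.53 ± 0.28 SE, with an unadjusted p of 0.0829 and an edgeR adjusted p of 0.930. Every GL and every blue_light library lay above every RL library. With library set as a covariate the fold of blue_light minus RL was 1.15 (adjusted p = 0.257). WNT5A, a ligand known mainly for signalling without beta-catenin, was next. The WNT5A values were 27.5, 34.5 and 36.4 FPKM in blue_light, 39.4, 45.0 and 46.5 in GL and 45.5, 35.5 and 39.5 in RL, with 33.8, 46.5 and 29.0 in control. Blue_light lay below GL without overlap, and both overlapped control. WNT3, a beta-catenin ligand, was the third. For WNT3 the libraries gave 32.2, 37.4 and 38.7 FPKM in blue_light, 40.6, 48.0 and 36.6 in GL, 32.2, 28.2 and 35.4 in RL and 34.4, 36.5 and 33.7 in control. Its GL libraries lay above every RL library and just above every control. For GL minus RL, WNT3 had a log2 fold change of 0.37 ± 0.16 SE (unadjusted p = 0.0352, edgeR adjusted p = 0.573).

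WNT10A and WNT6, ligands made by epithelia, lie side by side on 1 sequence, 7032 bases apart, on the same strand and with no gene between them in the deposited table. WNT10A stood at 4.25, 10.99 and 7.83 FPKM in blue_light, 12.5, 13.2 and 10.4 in GL and 6.76, 10.8 and 12.5 in RL, against 6.94, 5.64 and 7.29 FPKM in control. The WNT6 values were 1.87, 5.44 and 3.35 FPKM in blue_light, 7.77, 3.596 and 7.69 in GL and 3.21, 10.98 and 4.09 in RL, with 2.96, 2.57 and 3.45 in control. For both genes every GL library lay above every control, and RL overlapped control only through RL 1 for WNT10A and RL 1 for WNT6. For WNT10A, GL minus control gave a log2 fold change of 0.91 ± 0.33 SE (unadjusted p = 0.0154, edgeR adjusted p = 0.565). For WNT6, GL minus control gave a log2 fold change of 1.13 ± 0.52 SE (unadjusted p = 0.0491, edgeR adjusted p = 0.610). With library size as a covariate these folds were 0.54 and 0.53. Of the other close pairs, WNT3, at 36.2 FPKM, had WNT9B at 0.0126 FPKM 43338 bases away. WNT10B, at 0.136 FPKM, had WNT1 at 0.0078 FPKM 5088 bases away, and both of these were hardly detected.

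WNT16, a ligand found in skin and bone, was low throughout. For WNT16 the libraries gave 0.176, 0.834 and 0.305 FPKM in blue_light, 2.14, 3.48 and 0.710 in GL, 2.74, 1.14 and 0.743 in RL and 1.59, 1.49 and 2.40 in control. Blue_light lay below every control, while GL and RL each spanned the control values. WNT16 gave, for blue_light minus control, a log2 fold change of −2.04 ± 0.69 SE, with an unadjusted p of 0.0115 and an edgeR adjusted p of 1. For blue_light minus GL, WNT16 had a log2 fold change of −2.29 ± 0.70 SE (unadjusted p = 0.00597, edgeR adjusted p = 0.254). Blue_light 2 overlapped GL 3. The fold of blue_light minus control on the log2(FPKM + 1) scale was −0.99, since that scale understates the change of low genes, and DESeq2 gave WNT16 an adjusted p of 0.0454 in blue_light against GL. WNT2, a ligand of mesenchymal tissues, stood higher. WNT2 stood at 18.4, 10.5 and 21.4 FPKM in blue_light, 20.3, 10.7 and 22.8 in GL and 13.1, 8.94 and 15.1 in RL, against 20.9, 17.4 and 20.4 FPKM in control. RL lay below every control but overlapped blue_light and GL. In RL against control its log2 fold change was −0.60 ± 0.31 SE (unadjusted p = 0.0757, edgeR adjusted p = 1). WNT2B, of the same subfamily as WNT2, was low throughout and had no count in GL 3. The WNT2B values were 0.264, 0.394 and 0.239 FPKM in blue_light, 0.156, 0.183 and 0 in GL and 0.361, 0.302 and 0.430 in RL, with 0.219, 0.219 and 0.212 in control. The control values were alike, with blue_light and RL above them and GL below. WNT2B gave, for RL minus control, a log2 fold change of 0.81 ± 1.01 SE, with an unadjusted p of 0.437 and an edgeR adjusted p of 1. On the log2(FPKM + 1) scale it was 0.16. WNT7A, which is known in human limbal cells to act through FZD5 upstream of PAX6, averaged 0.381 FPKM over the 12 libraries and had no count in 4. WNT5B overlaps FBXL14 by 3133 bases on the other strand, and since the counting is not stated to use strand its reads cannot be assigned with certainty. WNT3A likewise overlaps LOC108176100 by 2007 bases. The remaining ligands averaged 10.1 FPKM for WNT9A, 9.58 for WNT11, 1.67 for WNT5B, 0.678 for WNT8A and 0.244 for WNT3A over the 12 libraries.

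The export machinery was measured well. For WLS the libraries gave 54.3, 94.5 and 73.5 FPKM in blue_light, 102, 109 and 118 in GL, 75.0, 83.9 and 91.5 in RL and 80.3, 80.9 and 77.8 in control. The GL libraries lay above every other library. For GL minus control, WLS had a log2 fold change of 0.51 ± 0.20 SE (unadjusted p = 0.0224, edgeR adjusted p = 0.599). In blue_light against GL its log2 fold change was −0.61 ± 0.20 SE (unadjusted p = 0.00831, edgeR adjusted p = 0.255). The first fold was 0.32 with library size as a covariate, and the second −0.35 without the libraries with retinal transcripts. PORCN, the acyltransferase that prepares Wnts for export, showed no such order. PORCN stood at 10.8, 7.19 and 7.94 FPKM in blue_light, 7.86, 7.59 and 6.35 in GL and 9.80, 6.96 and 5.90 in RL, against 8.47, 5.77 and 7.67 FPKM in control. Its groups overlapped in every comparison.

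Among receptors, 11 were tested: 9 Frizzleds, LRP5 and LRP6. FZD5 has its gene at 148646635 to 148649173 on the minus strand of sequence NC_013675.1, again in the deposited coordinates. The FZD5 values were 1.49, 1.65 and 1.55 FPKM in blue_light, 2.61, 2.60 and 3.11 in GL and 1.52, 2.54 and 2.08 in RL, with 1.58, 1.14 and 0.968 in control. GL lay above every control, every blue_light and every RL library. FZD5 gave, for GL minus control, a log2 fold change of 1.22 ± 0.33 SE, with an unadjusted p of 0.00289 and an edgeR adjusted p of 0.440. For blue_light minus GL, FZD5 had a log2 fold change of −0.88 ± 0.33 SE (unadjusted p = 0.0198, edgeR adjusted p = 0.276). The first of these was the smallest unadjusted p of any member against control, and DESeq2 gave it an adjusted p of 0.0489 among 147 genes it called. On the log2(FPKM + 1) scale the 2 folds were 0.77 and −0.55. In RL against control the fold of FZD5 was 0.80 ± 0.33 (unadjusted p = 0.0300, edgeR adjusted p = 1), with RL 1 inside the control range. FZD6 had the highest level of the Frizzleds. For FZD6 the libraries gave 27.1, 29.1 and 22.6 FPKM in blue_light, 20.9, 22.2 and 21.1 in GL, 35.5, 18.5 and 16.1 in RL and 29.5, 21.1 and 23.7 in control. Its blue_light libraries lay above every GL library, and RL 1 was the highest value. LRP5, a co-receptor, was nearly even. LRP5 stood at 13.6, 17.2 and 19.8 FPKM in blue_light, 22.1, 19.9 and 19.9 in GL and 15.0, 23.1 and 18.4 in RL, against 17.7, 18.7 and 26.3 FPKM in control. Its groups overlapped against control in all 3 cases, while blue_light lay below GL. FZD3 was rare. The FZD3 values were 0.653, 0.523 and 0.5001 FPKM in blue_light, 0.729, 0.481 and 0.435 in GL and 1.09, 0.682 and 0.802 in RL, with 0.731, 0.219 and 0.929 in control. In blue_light against RL its log2 fold change was −0.68 ± 0.51 SE (unadjusted p = 0.202, edgeR adjusted p = 0.965). On the log2(FPKM + 1) scale it was −0.25. The remaining Frizzleds ranged in mean from FZD1 at 14.3 FPKM through FZD2 at 5.96, FZD4 at 5.16 and FZD7 at 4.77 to FZD8 at 1.22 and FZD9 at 0.118. The second co-receptor, LRP6, averaged 8.64 FPKM. FZD7 averaged 6.41 ± 1.34 FPKM in GL, against 3.71 ± 1.46 in blue_light and 3.85 ± 1.14 in control (SD, 3 libraries each), with every GL library above every library of both.

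**Figure D3:**
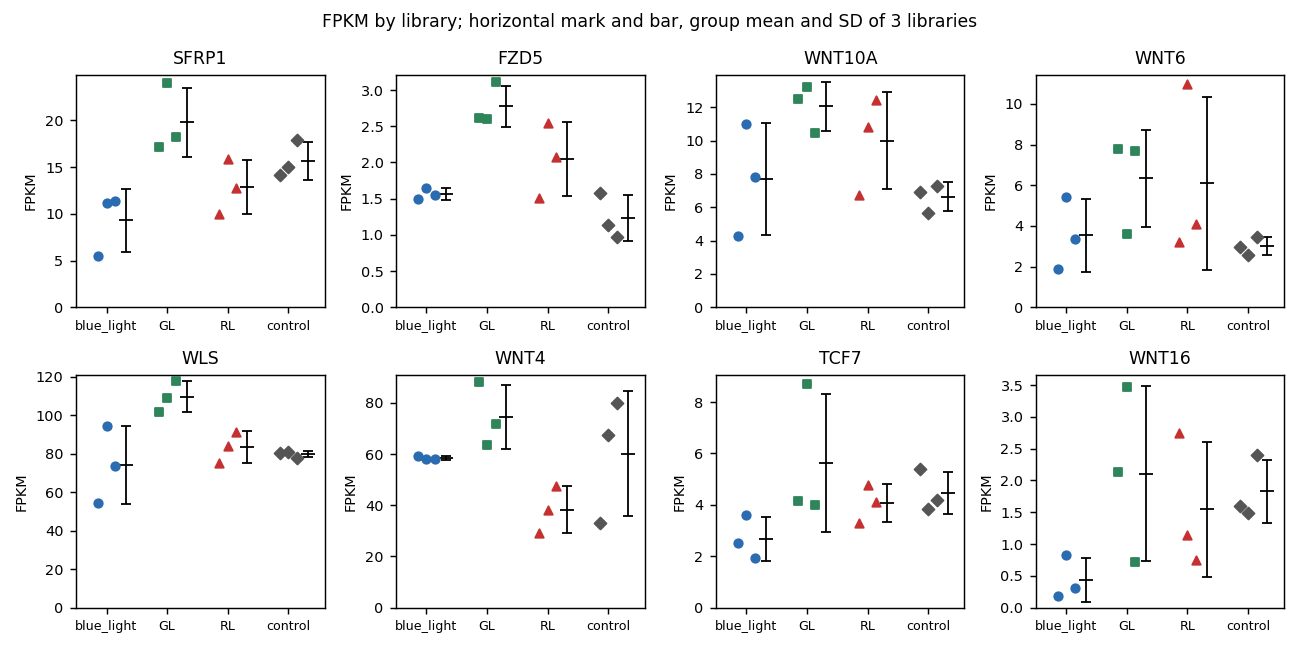
FPKM in each library of 8 Wnt genes, with symbols by group and the mean and SD of 3 libraries beside them, each axis starting at 0. SFRP1, TCF7 and WNT16 have their 3 blue_light points below every control point, and FZD5, WNT10A, WNT6 and WLS their 3 GL points above every control point.

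R-spondins, the secreted partners of LGR receptors that strengthen Wnt signals, were hardly detected, while LGR4 was the one abundant receptor for them. For LGR4 the libraries gave 25.4, 9.49 and 6.25 FPKM in blue_light, 25.4, 23.1 and 23.3 in GL, 39.9, 14.7 and 19.5 in RL and 11.5, 21.7 and 26.9 in control. Blue_light 2 and 3 were the lowest values and RL 1 the highest, and every comparison overlapped. LGR5, a stem cell marker in intestine, was far lower. LGR5 stood at 0.925, 2.33 and 1.86 FPKM in blue_light, 1.82, 1.61 and 1.41 in GL and 2.52, 3.15 and 1.48 in RL, against 3.05, 0.484 and 1.68 FPKM in control. Control 2 was the lowest value and the other controls were as high as RL. RSPO1 was detected in part of the libraries. The RSPO1 values were 2.84, 0.111 and 0 FPKM in blue_light, 0.134, 0 and 0.187 in GL and 0, 0 and 0.302 in RL, with 0.493, 0.381 and 0.611 in control. The controls lay above every GL and every RL library, all of these under 1 FPKM, and blue_light 1 stood above all others. RSPO1 gave, for RL minus control, a log2 fold change of −2.18 ± 2.13 SE, with an unadjusted p of 0.327 and an edgeR adjusted p of 1. This fitted fold ranged from −8.84 to −0.45 over the alternatives, and no size is read from it. LGR6 averaged 0.139 FPKM over the 12 libraries.

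RNF43 and ZNRF3, the ubiquitin ligases that take Frizzleds off the surface and are themselves beta-catenin targets, averaged 5.61 and 3.23 FPKM over the 12 libraries. For RNF43 the libraries gave 6.57, 4.84 and 7.14 FPKM in blue_light, 6.07, 5.10 and 7.10 in GL, 4.98, 4.57 and 3.80 in RL and 6.96, 4.83 and 5.33 in control. RL lay below GL without overlap, and both overlapped control. ZNRF3 stood at 2.88, 2.19 and 3.07 FPKM in blue_light, 3.79, 4.70 and 3.34 in GL and 2.63, 3.16 and 3.15 in RL, against 2.40, 3.88 and 3.54 FPKM in control. Here blue_light and RL lay below GL without overlap.

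Of the intracellular members, all 7 had a fold change below 0 in blue_light against control, and none was called. The share of all genes below 0 was not counted, so this count has no background beside it. LEF1, 1 of the 7, had counts only in blue_light 2 (11) and control 2 (19) of these groups. The CTNNB1 values were 149, 179 and 165 FPKM in blue_light, 179.7, 171 and 177 in GL and 171, 193 and 199 in RL, with 174, 196 and 173 in control. The groups overlapped in every comparison. For AXIN1 the libraries gave 17.6, 15.3 and 22.2 FPKM in blue_light, 19.8, 28.8 and 23.1 in GL, 13.9, 19.4 and 16.2 in RL and 19.8, 20.7 and 28.7 in control. RL lay below every control and every GL library. For RL minus control, AXIN1 had a log2 fold change of −0.41 ± 0.23 SE (unadjusted p = 0.0944, edgeR adjusted p = 1). In GL against RL its log2 fold change was 0.52 ± 0.23 SE (unadjusted p = 0.0429, edgeR adjusted p = 0.581). Without control 3 the fold of RL minus control was −0.23. TCF7, a transcription factor that partners beta-catenin, had its lowest mean in blue_light. TCF7 stood at 2.51, 3.62 and 1.93 FPKM in blue_light, 4.15, 8.72 and 3.98 in GL and 3.31, 4.76 and 4.12 in RL, against 5.39, 3.85 and 4.18 FPKM in control. Blue_light lay below every control and every GL library, and GL 2 was the highest value. TCF7 gave, for blue_light minus control, a log2 fold change of −0.73 ± 0.35 SE, with an unadjusted p of 0.0547 and an edgeR adjusted p of 1. For blue_light minus GL, TCF7 had a log2 fold change of −1.11 ± 0.35 SE (unadjusted p = 0.00718, edgeR adjusted p = 0.255). Without GL 2 the second fold was −0.64. AXIN2, the common readout of beta-catenin activity, was named here after its values were seen. The AXIN2 values were 7.75, 7.08 and 10.1 FPKM in blue_light, 8.54, 10.8 and 8.83 in GL and 7.77, 7.63 and 6.54 in RL, with 7.38, 10.97 and 8.65 in control. Only GL and RL did not overlap, with GL higher. TCF7L1 and TCF7L2 averaged 11.7 and 9.18 FPKM over the 12 libraries, and LEF1 had counts in 4 libraries only, at no more than 0.0828 FPKM.

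**Figure D4:**
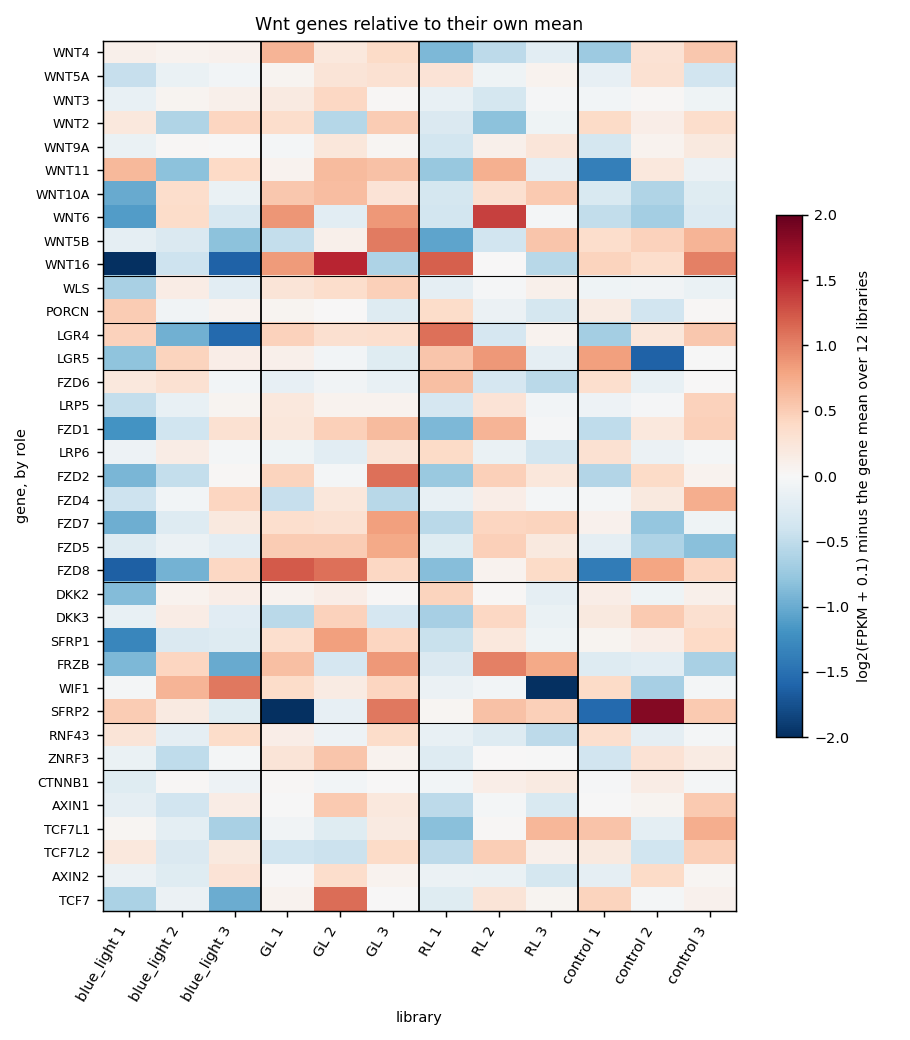
log2(FPKM + 0.1) of 37 Wnt genes minus each gene's mean over the 12 libraries, with libraries by group in columns and genes by role in rows; the colour scale ends at −2 and 2, so more extreme values share the end colours. SFRP1, WNT16 and FZD8 are lowest in blue_light 1, and FZD5 and WLS are above their mean in all GL libraries.

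Between light groups the direction of the members was uneven. In blue_light against GL 13 of 50 members did not overlap (26%), against 26.9% of all genes. Of these, 10 lay lower in blue_light (20%, background 10.5%) and 3 higher (6%, background 16.5%). The 10 were SFRP1, TCF7, WLS, FZD5, ZNRF3, WNT5A, FZD7, LGR6, LRP5 and WNT4, and the 3 were SFRP5, WNT2B and FZD6. All 9 members with an unadjusted p under 0.05 lay lower in blue_light, with edgeR adjusted p from 0.231 to 0.327. Their number was 1 with library set as a covariate, 4 with library size as a covariate, and 5 without the libraries with retinal transcripts, without blue_light 1 or without GL 3. The number over all genes fell from 2702 to 1264 with library set, 765 with library size and 609 without the libraries with retinal transcripts. It was 1251 without blue_light 1 and 1528 without GL 3. The fall was thus not confined to the members. With library set the members fell more steeply than all genes. With library size and without the libraries with retinal transcripts they fell less steeply. How many of all genes lay lower in blue_light at this p was not counted. Other alternatives gave more members, such as 12 with a replicate block and 16 with limma voom, beside 3171 and 4051 genes. In GL against RL 12 of 50 did not overlap (24%, background 13.4%), of which 11 lay higher in GL (22%, background 7.90%) and WNT2B lower (2%, background 5.53%). The 11 were WNT4, WNT3, AXIN1, SFRP1, RNF43, WLS, WIF1, AXIN2, ZNRF3, FZD5 and FZD8. In blue_light against RL 3 of 50 did not overlap (6%, background 9.36%), with WNT4 and WIF1 higher (background 7.02%) and FZD3 lower (2.34%). These shares are descriptions of the 50 members and were not tested, and the comparisons share libraries. No member had all 9 light libraries on 1 side of all controls, which 0.732% of all genes had.

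Marker sums of other cell types and tissues were uneven across groups. The summed corneal epithelium list (10 genes) was 25010 to 32037 CPM in blue_light, 38671 to 39013 in GL and 29250 to 43735 in RL, against 24709 to 33292 in control. RL 1, the RL library with low WNT10A and FZD5, was the one at 29250 CPM. The keratocyte list (12 genes) was 45677 to 67806 CPM in blue_light, 67158 to 71762 in GL and 50400 to 79265 in RL, against 52296 to 55939 in control. Its genes went opposite ways between blue_light and GL, so the sum does not speak for the list. COL1A1, COL1A2, COL5A1, COL8A2 and PDGFRA lay higher in GL without overlap. KERA, LUM, OGN and DCN lay higher in blue_light without overlap, with KERA at 2518 to 3406 FPKM against 1914 to 2246 in GL. ANGPTL7, PRELP and THY1 overlapped. The corneal endothelium list (9 genes) was 3958 to 4352 CPM in blue_light, 4086 to 5497 in GL and 3028 to 5611 in RL, against 4005 to 6136 in control. The lens list (15 genes) was 2139 to 16428 CPM in blue_light, 797 to 3663 in GL and 666 to 3369 in RL, against 5610 to 8989 in control. All 15 lens genes in GL (background 10.8%) and 13 in RL (6.16%) lay below control without overlap, though none of them was called. The retina list (19 genes) was 53.7 to 217 CPM in blue_light, 31.3 to 753 in GL and 28.8 to 62.5 in RL, against 27.7 to 163 in control. The lists for limbus and conjunctiva (4 genes), pigment and muscle (6 genes) and immune cells (4 genes) lay at 550 to 1105, 123 to 264 and 18.7 to 60.2 CPM with overlapping groups. The part of these tissues in the values of SFRP1, FZD5, WNT10A, WNT6 and WLS was not tested.

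Beyond the members, 5 further lists of the pathway held 97 genes, 91 of them tested, and none was called in any light group against control (background as above). At an unadjusted p under 0.05 there were 2 in blue_light, 8 in GL and 5 in RL, and the median log2 fold change was −0.03, 0.08 and 0.02. In the destruction complex and Dishevelled list (17 tested), the transducer DVL3 averaged 27.8 ± 3.97 FPKM in GL, against 40.1 ± 1.05 in control, with every GL library lower (SD, 3 libraries each; log2 −0.48 ± 0.19 SE, edgeR adjusted p = 0.601). CSNK1G1, a kinase that marks LRP6, averaged 11.3 ± 1.12 FPKM in blue_light and 6.72 ± 3.95 in control. GSK3A averaged 56.4 ± 5.15 FPKM in GL and 49.4 ± 0.998 in control, and PPP2CA 97.7 ± 11.2 in RL and 87.0 ± 10.7 in control. CSNK1D averaged 37.9 ± 3.62 FPKM in blue_light and 46.1 ± 8.91 in control. Among nuclear cofactors (12 tested), the kinase TNIK had 14.1, 19.6 and 12.4 FPKM in RL, against 11.5, 10.6 and 10.3 FPKM in control (log2 0.58 ± 0.19 SE, edgeR adjusted p = 1), and this fold was 0.34 without RL 2. The co-activator EP300 averaged 18.7 ± 1.51 FPKM in blue_light and 20.3 ± 0.680 in GL, against 15.9 ± 5.08 in control. BCL9L averaged 19.2 ± 1.69 FPKM in GL and 17.0 ± 2.17 in control, PYGO1 3.87 ± 0.919 in blue_light and 3.27 ± 0.302 in control, and TLE4 9.53 ± 1.19 in RL and 12.6 ± 1.48 in control.

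Among extracellular modulators (19 tested), KREMEN1, a receptor for DKK proteins, had 69.2, 78.4 and 68.6 FPKM in GL, against 41.6, 48.0 and 48.8 FPKM in control. Every GL library lay above every control (log2 0.69 ± 0.26 SE, edgeR adjusted p = 0.580), and this fold was 0.17 with library size as a covariate. SULF1, a sulfatase that edits the heparan sulfate to which Wnts bind, had 10.99, 10.9 and 12.0 FPKM in GL, against 17.3, 22.2 and 15.3 FPKM in control, again without overlap (log2 −0.64 ± 0.20 SE, edgeR adjusted p = 0.499). CTHRC1 averaged 12.9 ± 6.77 FPKM in RL and 6.40 ± 1.98 in control, and TSPAN12, a partner of FZD4, 0.418 ± 0.128 in RL and 1.15 ± 0.527 in control. APCDD1, a membrane-bound inhibitor, averaged 30.5 ± 11.7 FPKM in blue_light and 40.9 ± 2.40 in control, and TNFRSF19 3.87 ± 1.08 in blue_light and 5.12 ± 0.884 in control. In the list for planar polarity and other signalling without beta-catenin (24 tested), the receptor PTK7 averaged 9.74 ± 1.69 FPKM in blue_light and 15.7 ± 0.620 in GL, against 12.3 ± 0.947 in control. Its 3 groups did not overlap, with blue_light lowest and GL highest (edgeR adjusted p = 1 and 0.610 against control). VANGL1 averaged 8.39 ± 0.832 FPKM in GL and 6.19 ± 0.996 in control. NFATC3 averaged 10.8 ± 2.45 FPKM in blue_light and 7.02 ± 3.13 in control, RHOA 165 ± 9.30 in RL and 149 ± 13.3 in control, and RYK 26.6 ± 2.37 in RL and 23.9 ± 2.49 in control.

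Among known beta-catenin targets outside the members (22 tested), CD44, a hyaluronan receptor, had 43.2, 29.4 and 39.6 FPKM in blue_light, against 25.3, 16.4 and 16.7 FPKM in control (log2 0.94 ± 0.37 SE, edgeR adjusted p = 1), and this fold was 0.34 with library set as a covariate. JUN, also an immediate early gene, averaged 14.4 ± 6.17 FPKM in GL and 44.2 ± 24.6 in control, with every GL library lower. NKD1, a feedback inhibitor, averaged 4.71 ± 1.36 FPKM in GL and 7.51 ± 1.28 in control, with overlap. BAMBI averaged 4.23 ± 2.002 FPKM in RL and 2.06 ± 0.526 in control, with overlap. GREM1, a secreted BMP antagonist, had no count in any control and 0.956, 0 and 0.142 FPKM in blue_light, 0, 0.271 and 0 in GL and 0.470, 0.335 and 0.772 in RL.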

How the data were processed

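The authors deposited, per the file headers, an estimated count and an FPKM value for each gene and library in 1 table. The submitters' processing notes name the mouse builds GRCm38 and mm10, while the rows are rabbit genes on rabbit RefSeq sequences; no source used here names the aligner, the counter or the rabbit build. All 57 members were found by identifier in a RefSeq table of another rabbit assembly (mOryCun1.1), with the same symbol. Counts were whole numbers, so rounding changed nothing. Low counts pile up at steps of about 3.83, so 1 fragment stands for more than 1 count and depth was 10.7 to 16.9 M fragments. All 140000 counts of 0 are listed as 0.0001 FPKM and are given here as 0. Standard errors cover counting error and spread between samples, while the floors cover counting error only. The libraries carry no molecular identifiers.

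Tests used edgeR 4.0.16 (glmQLFit, glmQLFTest, TMM factors 0.944 to 1.06, filterByExpr with its minimum count of 10) in 1 fit of 12 libraries and 4 group means over 18171 genes. The common biological coefficient of variation was 0.578. Benjamini-Hochberg adjusted p under 0.05 was the threshold. The procedure was also run on simulated data. The outcome is not given here, and no result rests on it. Levels are FPKM as deposited, and groups were compared for overlap on FPKM. The members, lists and alternatives were chosen with earlier results of these data known. Named genes were SFRP1, the 2 highest members of each of 7 role groups, up to 4 members per comparison with the smallest p among those without overlap, and up to 2 genes per further list and light group; others are named to complete a family or a count. Alternatives were RLE and upper-quartile scaling, no filter, a mean FPKM of at least 1, DESeq2 1.42.0, limma 3.58.1 on log2(FPKM + 1), log2(FPKM + 0.1) and voom with array weights, a replicate block, only the compared groups, step-divided counts, covariates for library set and size, omission of libraries with retinal transcripts, and omission of each library. Deviations of libraries with the same replicate number correlated at −0.0808 to 0.222 over 18 pairs, against −0.601 to 0.130 for other pairs. The other pairs include those within a group. Taking away the group mean draws these negative, so the low end of that range was largely set in advance and is not read. Not every pair with the same number exceeded 0.1, so the numbers were not taken to pair samples. No sequence table was given here, so no sequence is shown.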

Additional observations from a re-analysis of the deposited data

How the results depend on the processing

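Over 26 alternatives, 12 of them omissions of 1 library, the count of Wnt members called was 0 in every comparison, except that DESeq2 called 1 in GL against control (FZD5) and 2 in blue_light against GL (SFRP1 and WNT16). None of the further pathway genes was called in any alternative for blue_light, GL or RL against control; for the other comparisons their calls were not counted under the alternatives. Of 1473 refitted values of 57 named results, 1468 kept direction and side of the threshold, 2 passed it (FZD5 and SFRP1 with DESeq2) and 3 changed sign: SFRP1 in GL minus control with library size as a covariate (−0.038), and in blue_light minus control CSNK1D (0.059) and NFATC3 (−0.14) with library set as a covariate; the cause was not tested. None of the named results passed the threshold as reported, so staying on the same side was nearly set in advance and says little. Kept values could still differ in size, as for PYGO1 in blue_light minus control, from 0.0009 to 0.37. All genes called, as reported and at the lowest and highest alternative, were 3, 1 and 29 in blue_light, 10, 1 and 147 in GL and 2, 1 and 87 in RL against control. They were 9, 0 and 383 in blue_light against GL, 2, 1 and 81 in blue_light against RL, 13, 2 and 202 in GL against RL, 2, 1 and 55 for the mean and 11, 0 and 267 for any difference, each highest value from DESeq2. The fit with a replicate block called 0 members and left SFRP1 in blue_light against GL at an adjusted p of 0.0962, against 0.231 without the block, with 5 of 12 libraries closest to their own number. The fit with only the compared groups was not run for the mean and for any difference.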

Other observations

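Members RSPO1 and WNT7A rested on 1 library, given as values with no explanation. RSPO1 had 2.84 FPKM and WNT7A 2.51 FPKM in blue_light 1, which is 56.1% and 54.9% of their sums over 12 libraries, and their next highest values were 0.611 and 0.558 FPKM. Blue_light 1 also had the highest lens sum, at 16428 CPM. Of the 37 members averaging at least 1 FPKM, 13 had their lowest value in blue_light 1 and 7 in RL 1, while 7 had their highest in GL 2 and 6 each in GL 3 and RL 2. The same was not counted over all genes, so these numbers have no background beside them. Blue_light 1 was also the library with the lowest total count, at 40.9 M. PAX6, which WNT7A is known to support in human limbal cells, stood at 217 to 377 FPKM in blue_light, 222 to 283 in GL and 189 to 393 in RL, against 289 to 336 in control.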
